A study of Mus musculus with 59 samples.

Results

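The genes for the peptide hormones vasopressin (Avp) and oxytocin (Oxt) and for 3 of their receptors (Avpr1a, Avpr1b and Oxtr) were followed across brain regions of mice treated with the peptide combination named IP118/PY115 or with vehicle. The members were the rows of the count table whose Ensembl ID carries 1 of those 5 symbols, and each symbol matched a single row, giving 5 of 21935 genes. RNA sequencing libraries came from C57BL/6 mice killed 4 h after an intraperitoneal injection. Laser capture took 4 mm² of tissue from 10 µm sections of each of 3 regions: a pair of hypothalamic nuclei, the paraventricular (PVN) and the arcuate (ARC), and, in the hindbrain, the solitary tract nucleus (NTS). By its title, the series is about co-agonism at PYY and GLP-1 receptors in obese-diabetic mice. The labels of these libraries name the strain and no diet, age, sex or dose, and IP118 and PY115 are code names that the labels do not explain. There were 10 IP118/PY115 and 10 vehicle libraries from PVN, 10 IP118/PY115 and 9 vehicle libraries from ARC, and 10 of each from NTS. The labels do not say which libraries came from the same animal, so libraries of different regions were treated as independent although the regions were dissected from the same animals.

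Vasopressin and oxytocin are short peptides cut from precursors that also hold a carrier protein, neurophysin. Magnocellular neurons of the PVN and of the supraoptic nucleus send them to the posterior pituitary, from which they reach the blood, and smaller PVN neurons release them within the brain, including the hindbrain. Vasopressin limits water loss and, with corticotropin-releasing hormone, drives the stress axis. Oxytocin acts in birth, lactation, social behaviour and satiety, and oxytocin fibres from the PVN reach the NTS, where signals from the gut arrive. The receptors encoded by Avpr1a, Avpr1b and Oxtr are coupled mainly to Gq proteins, whereas the kidney receptor encoded by Avpr2 is coupled to Gs.

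Avp and Oxt lie next to each other in opposite orientation. In GRCm38, Avp (ENSMUSG00000037727) occupies chr2:130580620-130582554 on the minus strand and Oxt (ENSMUSG00000027301) occupies chr2:130576173-130577054 on the plus strand. Their ends are 3565 bases apart with 0 annotated genes between them, and each has 3 exons. The bases in exon 1 that code for each 9-residue hormone are shown because they set the difference between the 2 hormones themselves. Capitals mark the 5 bases that differ, which change 2 of the 9 residues; the Avp bases are chr2:130582446-130582472 and the Oxt bases chr2:130576267-130576293, each read on its gene's own strand.
Avp hormone: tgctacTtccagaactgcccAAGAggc
Oxt hormone: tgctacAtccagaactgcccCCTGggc
Exon 2, which codes for most of neurophysin, is nearly the same in both genes. Of its 202 coding bases, 193 were identical (95.5%). Within it lies a run of 125 bases shared without a mismatch, at chr2:130581133-130581257 in Avp and chr2:130576591-130576715 in Oxt, shown because a read that falls inside it cannot be assigned to either gene.
Avp and Oxt shared run: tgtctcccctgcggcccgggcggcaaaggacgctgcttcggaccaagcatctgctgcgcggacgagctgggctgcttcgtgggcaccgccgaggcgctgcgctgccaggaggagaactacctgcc
Of all 75-base stretches, 10.5% of those in the Avp transcript and 11.4% of those in the Oxt transcript also occur in the other. How the authors counted such reads is not given in the sources used here, so a small part of each gene's count may be missing or may belong to its neighbour.

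The 250 bases before each start, from RefSeq on GRCm38.p6, are shown because these neighbouring genes lie in opposite orientation. RefSeq promoters were matched for 4 of the 5 members, Avpr1b having no entry. The Avp stretch is chr2:130582589-130582838 and the Oxt stretch chr2:130575919-130576168, each on its gene's strand. Capitals mark the E-box CACGTG, the nuclear receptor element core TGACC with its reverse GGTCA, and the TATA-like letters ATAAA, searched on both strands.
Avp promoter: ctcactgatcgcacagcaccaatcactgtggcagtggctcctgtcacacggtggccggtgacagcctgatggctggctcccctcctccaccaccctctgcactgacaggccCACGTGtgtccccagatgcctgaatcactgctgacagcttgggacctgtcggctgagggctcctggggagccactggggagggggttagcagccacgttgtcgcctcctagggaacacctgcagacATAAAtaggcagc
Oxt promoter: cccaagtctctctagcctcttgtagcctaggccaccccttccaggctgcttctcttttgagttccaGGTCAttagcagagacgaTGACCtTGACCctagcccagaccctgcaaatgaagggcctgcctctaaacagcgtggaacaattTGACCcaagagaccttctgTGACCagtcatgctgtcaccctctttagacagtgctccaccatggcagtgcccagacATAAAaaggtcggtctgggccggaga
The Avp stretch held 1 CACGTG, which 6.05% of 27025 promoters of the same length hold. The Oxt stretch held 5 TGACC or GGTCA, of which at least 1 occurs in 34.9% of promoters. Each held 1 ATAAA (38.1% of promoters). Neither held the cAMP element core TGACG (17.9%) or the glucocorticoid element core AGAACA (16.2%). These matches describe the letters and show no binding.

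Library totals ran from 3964093 to 28510118 counts with a median of 10717483. Levels are given as CPM, the share of a library's counts on the usual CPM scale after TMM scaling over all 59 libraries. The dissections carried the markers of their regions. The 4 PVN markers Crh, Trh, Sim1 and Otp summed to at least 1135 CPM in every PVN library. The 5 measured arcuate markers summed to at least 1613 CPM in every ARC library. The 4 NTS markers summed to at least 333 CPM in every NTS library. In IP118/PY115 NTS library 9 the PVN markers summed to 102.7 CPM, beside a median of 5.92 CPM in that group. That library held the 1 Avp count in NTS and 2 of the 4 Avpr1b counts there. In IP118/PY115 ARC library 2 the oligodendrocyte markers summed to 6011 CPM, beside a group median of 973 CPM. Library 1 of each treatment stood with the other treatment in all 3 regions for genes chosen after their values were seen. The cell cycle inhibitor gene Cdkn1a in NTS stood at 8.997 CPM in IP118/PY115 library 1 and at 36.8 to 68.2 CPM in the 9 other IP118/PY115 libraries, against 56.6 CPM in vehicle library 1 and 7.51 to 17.6 CPM in the 9 other vehicle libraries. The activity gene Fosb in NTS stood at 0.857 CPM in IP118/PY115 library 1 and at 18.9 to 48.8 CPM in the others, against 39.7 CPM in vehicle library 1 and 0.141 to 2.70 CPM in the others. Cdkn1a was placed the same way in PVN and ARC. These 6 libraries were kept under their labels. They were picked by genes that differ with treatment, so leaving them out favours treatment calls. Treatment effects without them are given for Avp, Oxt, Avpr1a and Avpr1b in PVN. For the other treatment effects on members they are given where leaving them out turned a direction or changed a call. Another 5 libraries, 3 vehicle PVN and 2 vehicle ARC, carry title numbers 5553 to 5557, a separate run of numbers that holds vehicle libraries only; the treatment comparisons in PVN and ARC are given without them too where that changes a result.

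Avp and Oxt were abundant in PVN, low and uneven in ARC and at or near 0 in NTS. In PVN, Avp ran from 4321 to 8340 CPM around a median of 5909 in IP118/PY115 libraries, against 3126 to 12794 CPM around a median of 5389 in vehicle libraries. Oxt ran from 5640 to 9202 CPM (median 7439) in IP118/PY115 libraries, against 4511 to 8884 CPM (median 7778) in vehicle libraries. The treatment groups overlapped for both genes. Together the 2 genes took 1.34 ± 0.22% of all counts of a PVN library after IP118/PY115 (SD, n = 10) and 1.31 ± 0.41% after vehicle (SD, n = 10). In such tissue samples, fewer cells of a type and less RNA per cell cannot be told apart.

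In ARC both hormone genes were far lower and very uneven. Avp ran from 0.196 to 104 CPM around a median of 1.54 in IP118/PY115 libraries and from 0 to 225 CPM around a median of 3.77 in vehicle libraries. Oxt ran from 0.318 to 191 CPM (median 1.30) in IP118/PY115 libraries and from 0.430 to 226 CPM (median 1.97) in vehicle libraries. The SD exceeded the mean for both genes in both groups, with coefficients of variation of 168% to 198%. In NTS hardly a read was counted. Avp had 1 count over the 10 IP118/PY115 libraries and 0 counts over the 10 vehicle libraries, which allows up to 0.0238 CPM by 3 counts over that group. Oxt had 5 counts over the IP118/PY115 libraries, in 3 of them, and 17 over the vehicle libraries, in 6 of them. These limits cover counting error only, since PCR copies were not marked.

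**Figure D1:**
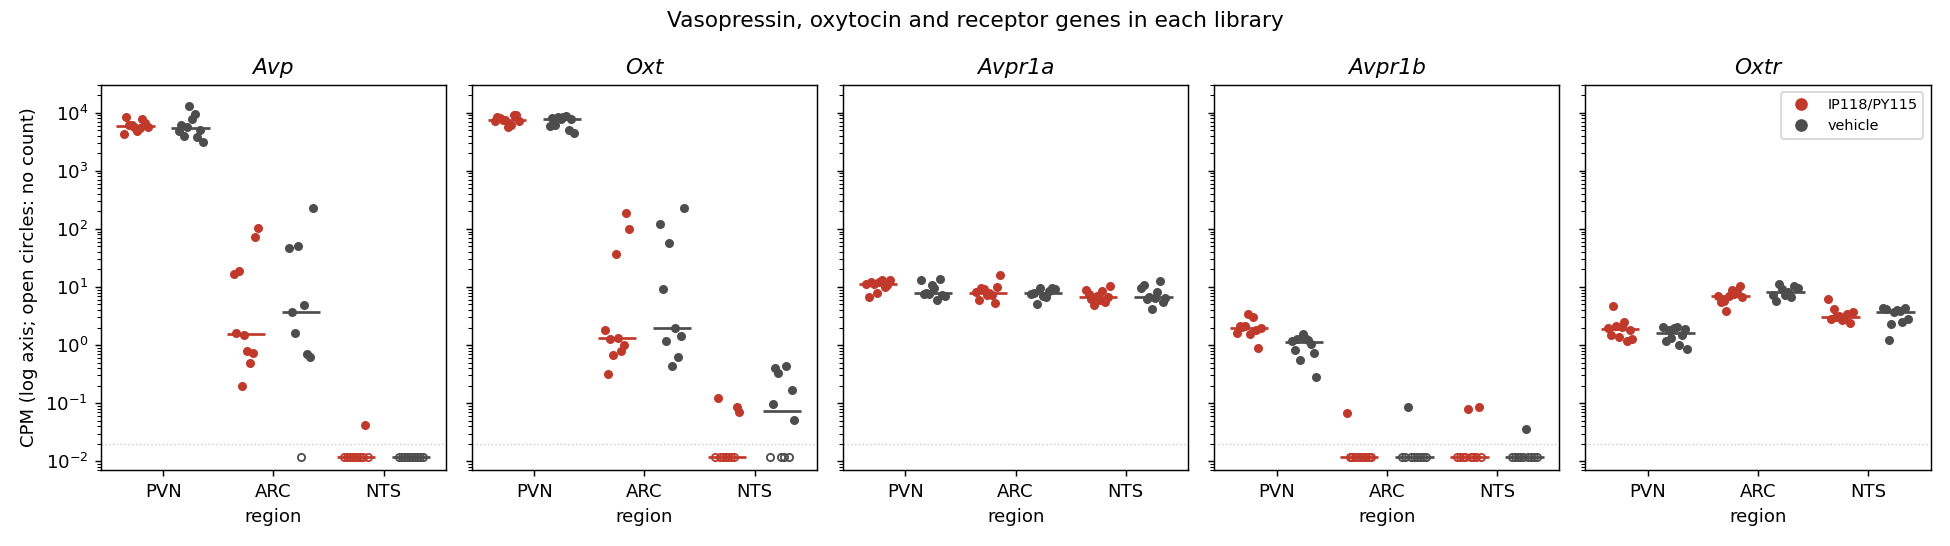
CPM of each of the 5 genes in every library (log axis) by region, IP118/PY115 in red left of vehicle in grey; open circles at the bottom are libraries with no count and bars are medians. Avp and Oxt stand at 3126 CPM or more in every PVN library, are spread from 0 to 226 CPM in ARC and are at or near 0 in NTS, whereas Avpr1a lies between 4.23 and 16.1 CPM in every library and Avpr1b has 2 to 43 counts in each PVN library and at most 2 in any other.

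The regional differences of the hormone genes were tested in vehicle libraries in a joint edgeR quasi-likelihood fit of all 59 libraries, with Benjamini-Hochberg adjustment over 14379 genes and genes called at an adjusted p under 0.05. In PVN over ARC, Avp was higher by 7.36 ± 0.87 log2 units (SE; adjusted p = 1.2e-09) and Oxt by 7.22 ± 0.86 (adjusted p = 3.6e-10). Without the vehicle libraries of title numbers 5553 to 5557, which include ARC library 9, the differences were 8.76 for Avp and 8.05 for Oxt. Summed over the vehicle libraries, Avp was at least 274441-fold higher in PVN than in NTS, taking 3 counts over the NTS group as its floor. Oxt was 53516-fold higher in PVN than in NTS by summed counts (95% exact counting interval 33425 to 91869). In ARC, Avp was at least 1732-fold higher than in NTS and Oxt 385-fold higher (counting interval 240 to 661). Neither gene could be tested in NTS alone, so these values against NTS are given as a description, with no test. The ARC sums rest on few libraries, since vehicle library 9 held 2422 of the 3658 Avp counts and 2427 of the 4604 Oxt counts.

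Neither hormone gene was called for treatment in PVN or ARC. In PVN the log2 fold change of IP118/PY115 over vehicle was -0.04 ± 0.22 for Avp (95% interval -0.49 to 0.42; adjusted p = 0.983, edgeR quasi-likelihood test) and 0.10 ± 0.12 for Oxt (-0.15 to 0.36; adjusted p = 0.876). Of the 10 IP118/PY115 libraries, 8 lay above the vehicle median for Avp and 4 for Oxt. Without the libraries numbered 1 the values were -0.02 ± 0.23 and 0.09 ± 0.13. Without the vehicle libraries of title numbers 5553 to 5557, in which Avp averaged 4033 CPM against 7221 CPM in the other 7 vehicle libraries, the fold changes were -0.24 for Avp and -0.0073 for Oxt. In ARC the fold changes were -0.83 ± 1.16 for Avp (interval -3.27 to 1.6; adjusted p = 0.910) and -0.52 ± 1.22 for Oxt (-3.10 to 2.07; adjusted p = 0.961), so that large changes in either direction fall within the intervals. Without ARC vehicle library 9 they turned to 0.60 and 0.42, and without the title numbers 5553 to 5557, which include it, to 0.41 and 0.23. In NTS neither gene had enough counts to be tested.

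The balance between the 2 hormones was read within each library, where scaling drops out. The log2 of Avp over Oxt, each with 0.5 CPM added, averaged -0.33 ± 0.19 in IP118/PY115 PVN libraries (SD, n = 10; -0.71 to -0.02) and -0.27 ± 0.43 in vehicle PVN libraries (SD, n = 10; -0.64 to 0.74). The difference of -0.05 was within the spread (p = 0.752, two-sided permutation test with 100000 resamples; adjusted p = 0.828 over 3 tests). Vehicle library 5 stood apart at 12794 CPM Avp and 7670 CPM Oxt, so that Avp made up 62.5% of the counts of the 2 genes there (95% exact interval 62.3% to 62.7%), against 37.9% to 51.4% in the 19 other PVN libraries. The combined share of counts differed by 0.03 percentage points between treatments (p = 0.828, permutation test; adjusted p = 0.828).

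Avp and Oxt varied together from library to library in PVN. After removing the group means, log2 CPM of the 2 genes correlated at Pearson r = 0.75 (permutation p = 1.3e-04, adjusted p = 2.6e-04 over 6 relations) and Spearman rho = 0.80 (p = 9.0e-05, adjusted p = 2.7e-04) across 20 libraries, and at r = 0.78 without the 2 libraries farthest from the median of Avp. The relation held within the IP118/PY115 libraries (r = 0.74, rho = 0.90; permutation p = 0.0128 and 8.2e-04, adjusted p = 0.0154 and 0.0016) and within the vehicle libraries (r = 0.76, rho = 0.77; permutation p = 0.0106 and 0.0122, adjusted p = 0.0154 and 0.0146). Oxt also followed the summed level of Sim1 and Otp, transcription factors needed to form these neurons (r = 0.72, rho = 0.65; permutation p = 4.9e-04 and 0.0024, adjusted p = 0.0059 and 0.0144 over 12 relations chosen after the data were seen; r = 0.48 without the 2 farthest libraries). For Avp the same relation stood at r = 0.49 (rho = 0.51; permutation p = 0.0290 and 0.0241, adjusted p = 0.116 and 0.0964) and at r = 0.19 without the 2 farthest libraries. The relation was not particular to this pair, since other genes followed each hormone gene more closely over the same 20 libraries. The 5 genes closest to Avp stood at r = 0.78 to 0.85 and the 5 closest to Oxt at 0.87 to 0.88. Neither hormone gene was among the 5 closest to the other. Reads in the shared run of exon 2 touch both genes in each library, and their part in the correlation was not tested.

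**Figure D2:**
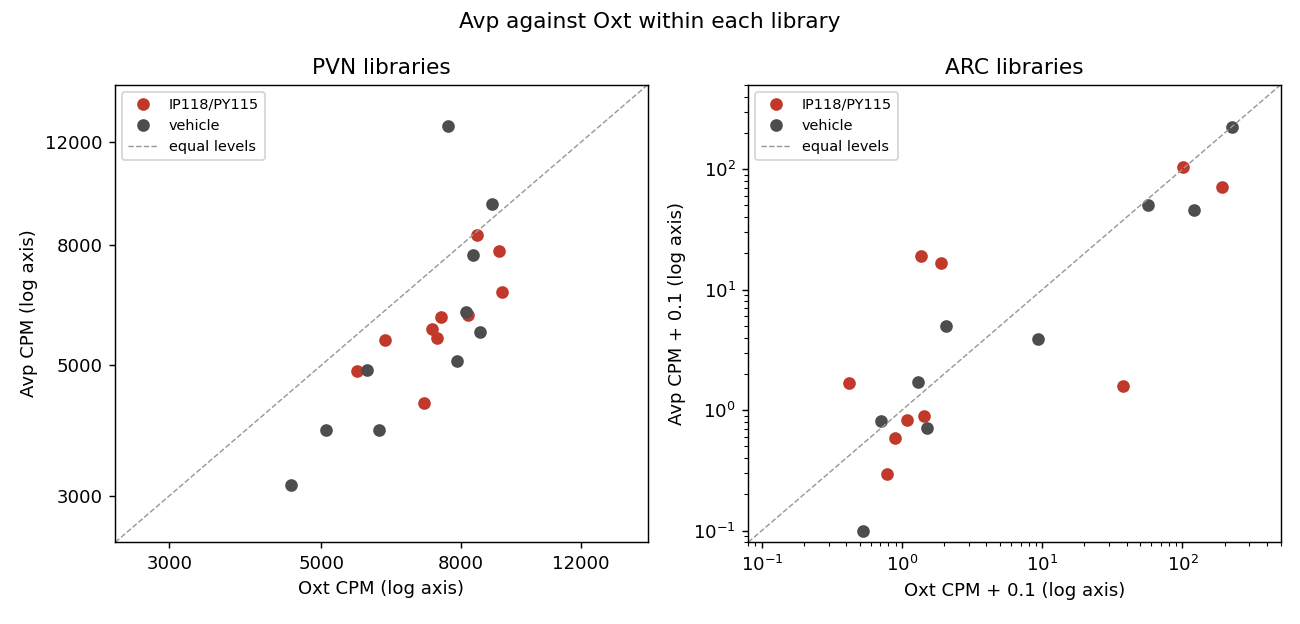
Avp CPM against Oxt CPM in each PVN library (left) and each ARC library (right, with 0.1 CPM added), log axes, IP118/PY115 in red and vehicle in grey; the dashed line marks equal levels. PVN libraries lie close to the line, with vehicle library 5 the farthest above it at 12794 CPM Avp, whereas ARC libraries reach from under 1 to 226 CPM and IP118/PY115 libraries 1, 3 and 5 lie far off the line.

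The balance of the 2 genes was more uneven among ARC libraries than the PVN span of 37.9% to 62.5% Avp. IP118/PY115 library 5 had 17 Avp and 425 Oxt counts, so that Avp was 3.85% of the 2 (95% exact interval 2.26% to 6.09%). IP118/PY115 library 3 had 254 Avp and 17 Oxt counts, or 93.7% Avp (90.1% to 96.3%), and library 1 of the same group had 242 and 26, or 90.3% (86.1% to 93.6%). The intervals of these 3 libraries, which cover counting error only, lay outside that span, as did that of vehicle library 2 with 35 and 86 counts (28.9%, 21.05% to 37.87%), by a narrow margin. Vehicle library 9 with 2422 Avp and 2427 Oxt counts was at 49.9% (48.5% to 51.4%) and IP118/PY115 library 10 with 952 and 915 at 50.99% (48.7% to 53.3%), both within it. Vehicle library 1 with 518 and 1346 was at 27.8% (25.8% to 29.9%) and IP118/PY115 library 9 with 728 and 1960 at 27.1% (25.4% to 28.8%), both below it. The mean log2 of Avp over Oxt was 0.02 ± 2.196 in IP118/PY115 libraries (SD, n = 10) and -0.32 ± 0.81 in vehicle libraries (SD, n = 9), a difference of 0.33 within the spread (exact permutation p = 0.688, adjusted p = 0.828).
Across the ARC libraries Avp and Oxt still correlated, at r = 0.97 and rho = 0.92 in the 9 vehicle libraries (exact permutation p = 1.3e-04 and 0.0013, adjusted p = 2.6e-04 and 0.0020). In the 10 IP118/PY115 libraries r = 0.70 and rho = 0.68 (permutation p = 0.0202 and 0.0351, unchanged by adjustment) fell to r = 0.08 without the 2 libraries farthest from the median, so that relation rests on those libraries.

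Markers of neighbouring tissue were set beside the ARC hormone counts. Sim1, which marks the PVN and the supraoptic nucleus, ran from 99.3 to 152 CPM in IP118/PY115 PVN libraries and from 110 to 158 CPM in vehicle PVN libraries. In ARC it had a count in 4 of 10 IP118/PY115 libraries (0 to 2.09 CPM) and in 5 of 9 vehicle libraries (0 to 1.07 CPM). Avp plus Oxt followed Sim1 across the 19 ARC libraries (r = 0.59, rho = 0.67; permutation p = 0.0060 and 0.0021, adjusted p = 0.0361 and 0.0144 over the 12 relations; r = 0.74 without the 2 farthest libraries). For the summed oligodendrocyte markers r was 0.26 and rho 0.50 (permutation p = 0.298 and 0.0323, adjusted p = 0.463 and 0.0970), and without the 2 farthest libraries r was 0.51 and rho 0.60. For Crh r was 0.29 and rho 0.38, for the summed suprachiasmatic markers 0.27 and 0.21, and for the summed anterior pituitary markers 0.05 and -0.01, none past an adjusted p of 0.05. Vip, the defining peptide of the suprachiasmatic nucleus, stayed at or under 1.06 CPM in every ARC library. The whole list of 9 suprachiasmatic markers, led by the developmental factor genes Six3 and Six6, summed to 151 to 221 CPM in IP118/PY115 and 169 to 238 CPM in vehicle ARC libraries, above its 52.8 to 104 CPM in IP118/PY115 and 67.8 to 112 CPM in vehicle PVN libraries. The part of tissue from outside the ARC in these counts was not tested.

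**Figure D3:**
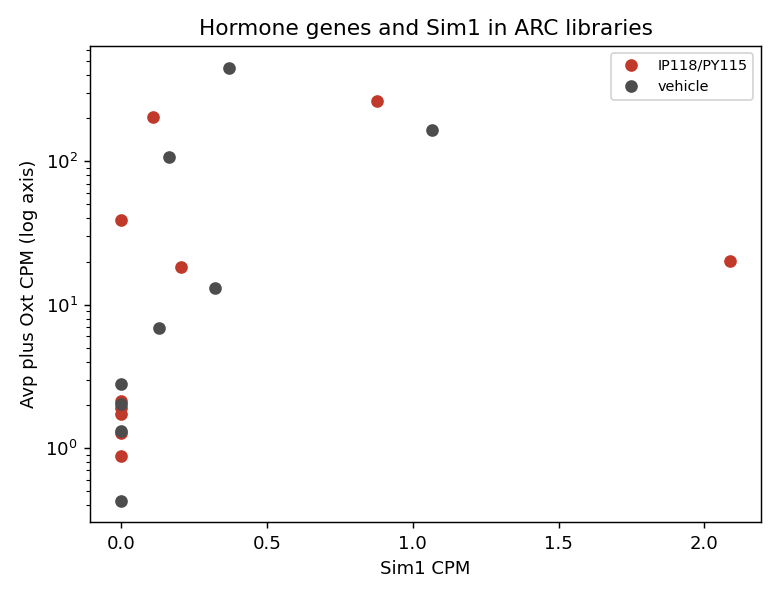
Avp plus Oxt CPM (log axis) against Sim1 CPM in each of the 19 ARC libraries, IP118/PY115 in red and vehicle in grey. Libraries without a Sim1 count lie mostly below 3 CPM of Avp plus Oxt, with IP118/PY115 library 5 (1.498 CPM Avp and 37.5 CPM Oxt) as the exception, and the highest library with a Sim1 count is vehicle library 9 (225 CPM Avp and 226 CPM Oxt).

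Among the receptors, Avpr1b, the V1b receptor gene best known from pituitary corticotropes and hippocampal area CA2, had nearly all of its counts in PVN libraries. Over both treatments it had 323 counts in 20 PVN libraries, 2 counts in 19 ARC libraries and 4 counts in 20 NTS libraries. In PVN it ran from 0.905 to 3.42 CPM around a median of 1.98 in IP118/PY115 libraries, against 0.284 to 1.54 CPM around a median of 1.12 in vehicle libraries. Summed over vehicle libraries, 91 counts in PVN against 1 in ARC made it 91.3-fold higher there (95% exact counting interval 15.99 to 3647), and 91 against 1 in NTS made it 130-fold higher (22.7 to 5179). Avpr1b passed the filter on low counts only through PVN, so a test against the other regions was bound to find it higher there, and these counts are given as a description.

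Avpr1b was the member whose PVN level differed most with treatment relative to its error. Of the 10 IP118/PY115 libraries, 8 lay above the highest vehicle library, and 4 vehicle libraries lay below the lowest IP118/PY115 library, while the groups overlapped through IP118/PY115 libraries 9 and 6, at 0.905 and 1.52 CPM. The means were 2.05 ± 0.72 CPM after IP118/PY115 and 1.002 ± 0.39 CPM after vehicle (SD, n = 10 each), from 5 to 43 counts and from 2 to 19 counts a library. The log2 fold change was 1.02 ± 0.25 (95% interval 0.49 to 1.54), with p = 4.4e-04 and an adjusted p of 0.0610 by edgeR's quasi-likelihood test, which misses the threshold of 0.05. Without the libraries numbered 1 it was 1.09 ± 0.27 with an adjusted p of 0.0220. Then 7 of 9 IP118/PY115 libraries lay above the highest of 9 vehicle libraries. That exclusion favours calls, and with it the calls over all genes in PVN rose from 88 to 429. DESeq2 (adjusted p = 0.0166) and limma-voom (adjusted p = 0.0110) called Avpr1b with all libraries. The vehicle libraries of title numbers 5553 to 5557 averaged 0.688 CPM against 1.14 CPM in the other 7. Without them the fold change was 0.84 ± 0.27 with an adjusted p of 0.224. Leaving out a single library gave adjusted p values of 0.0299 to 0.137, under 0.05 without library 1 or 9 of IP118/PY115 or library 1 or 5 of vehicle. Anterior pituitary markers were near 0 in PVN, with 3 of 6 at 0 and sums of 0 to 0.836 CPM after IP118/PY115, and 4 of 6 at 0 and sums of 0 to 0.510 CPM after vehicle. The 4 CA2 markers, present in every group of all 3 regions, summed to 162 to 246 CPM after IP118/PY115 and 175 to 230 CPM after vehicle. Without the libraries numbered 1 the sums were 216 to 246 CPM after IP118/PY115 and 175 to 230 CPM after vehicle, and 1 of the 4 markers, Amigo2, was then called, as Avpr1b was. With those libraries Amigo2 stood at 0.26 ± 0.10 (adjusted p = 0.315). Of the 4 CA2 markers 2 then lay above 0 and 2 below, with a median of 0.04. In ARC their sums were 321 to 465 CPM after IP118/PY115 and 421 to 446 CPM after vehicle. In NTS they were 192 to 237 CPM and 186 to 309 CPM. Avpr1b had 2 counts in all ARC libraries and 4 in all NTS libraries. The part of these markers' tissue in the Avpr1b difference was not tested.

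**Figure D4:**
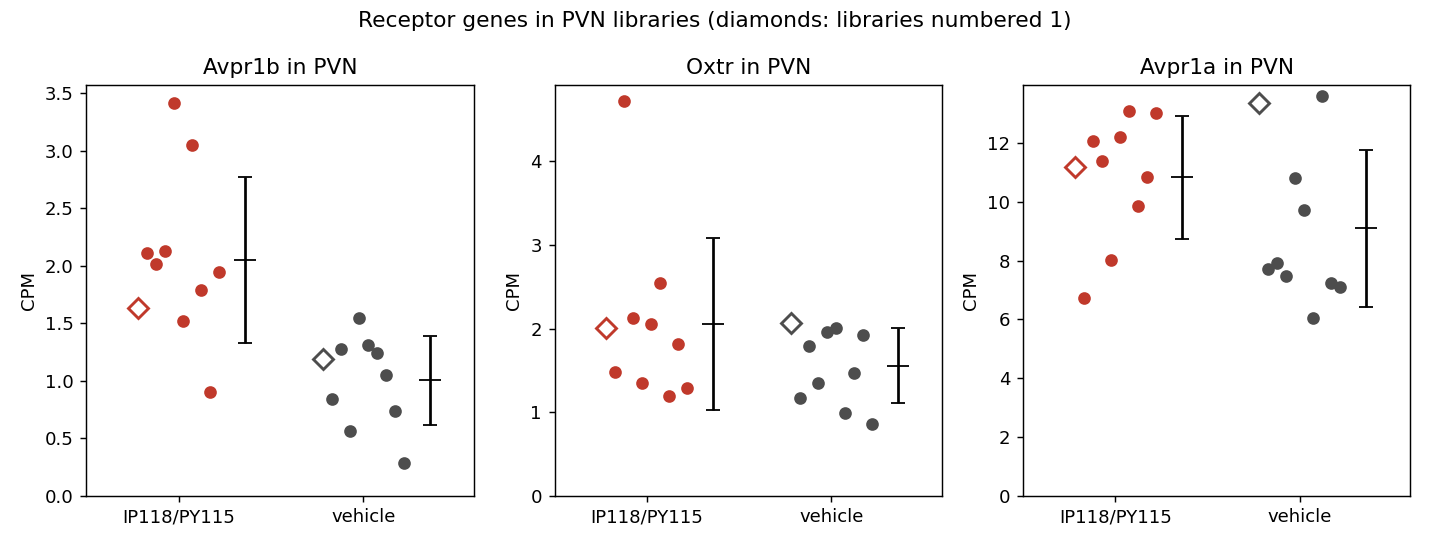
CPM of Avpr1b, Oxtr and Avpr1a in each PVN library, IP118/PY115 left and vehicle right, with mean and SD over 10 libraries beside the points and the libraries numbered 1 as diamonds. For Avpr1b 8 of 10 IP118/PY115 libraries lie above the highest vehicle library at 1.54 CPM, while the groups overlap broadly for Oxtr and Avpr1a.

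Avpr1a, the V1a receptor gene found in many brain areas and in blood vessels and liver, was at a similar level in all 3 regions. It averaged 10.9 ± 2.1 CPM in IP118/PY115 and 9.11 ± 2.68 CPM in vehicle PVN libraries, 8.64 ± 3.004 and 7.93 ± 1.48 CPM in ARC, and 7.16 ± 1.69 and 7.65 ± 2.56 CPM in NTS (SD, n = 10, or 9 for vehicle ARC). In vehicle libraries PVN over ARC differed by 0.20 ± 0.17 log2 units (interval -0.15 to 0.55; adjusted p = 0.367), PVN over NTS by 0.27 ± 0.17 (-0.07 to 0.61; adjusted p = 0.170) and ARC over NTS by 0.07 ± 0.17 (-0.27 to 0.42; adjusted p = 0.736), none called. The treatment effect was 0.25 ± 0.15 in PVN (interval -0.06 to 0.55; adjusted p = 0.688), with 9 of 10 IP118/PY115 libraries above the vehicle median, and 0.33 ± 0.15 without the libraries numbered 1 (adjusted p = 0.35). It was 0.11 ± 0.17 in ARC (-0.22 to 0.45; adjusted p = 0.915) and -0.08 ± 0.17 in NTS (-0.43 to 0.27; adjusted p = 0.999).

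Oxtr, the oxytocin receptor gene, was lowest in PVN, higher in NTS and highest in ARC in vehicle libraries. It ran from 1.19 to 4.72 CPM (median 1.91) after IP118/PY115 and from 0.853 to 2.06 CPM (median 1.63) after vehicle in PVN. In ARC it ran from 3.93 to 10.3 CPM (median 6.99) after IP118/PY115 and from 5.81 to 11.1 CPM (median 8.16) after vehicle. In NTS it ran from 2.36 to 6.26 CPM (median 3.08) after IP118/PY115 and from 1.21 to 4.30 CPM (median 3.74) after vehicle. In vehicle libraries Oxtr was lower in PVN than in ARC, with a log2 difference of -2.40 ± 0.22 (adjusted p = 9.0e-15), lower in PVN than in NTS at -1.04 ± 0.22 (adjusted p = 6.1e-05), and higher in ARC than in NTS by 1.36 ± 0.20 (adjusted p = 2.2e-08). The treatment effect was 0.36 ± 0.25 in PVN (interval -0.16 to 0.88; adjusted p = 0.760), -0.25 ± 0.16 in ARC (-0.57 to 0.07; adjusted p = 0.768) and 0.07 ± 0.21 in NTS (-0.37 to 0.50; adjusted p = 0.999). In ARC 3 of 10 IP118/PY115 libraries lay above the vehicle median.

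**Figure D5:**
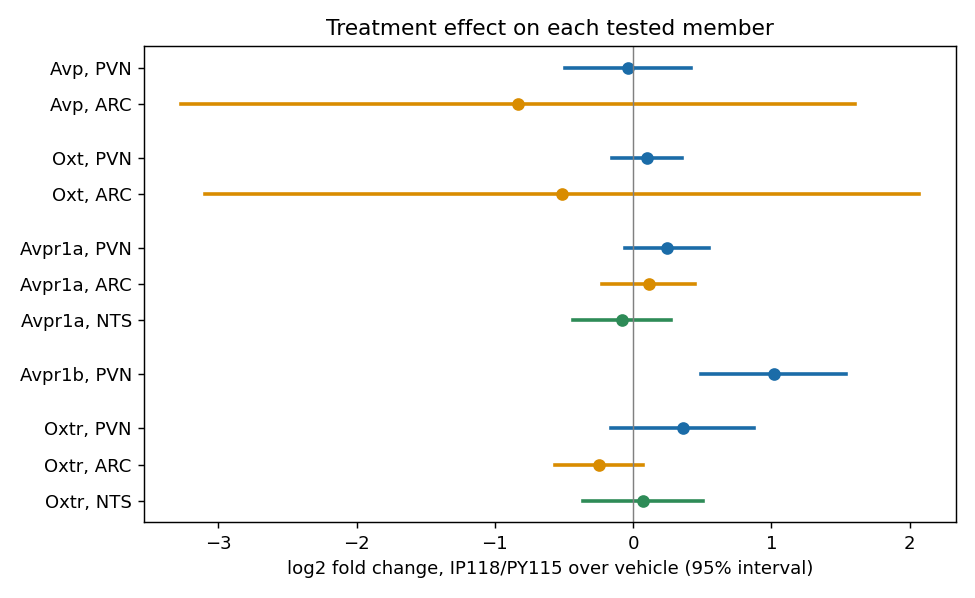
Log2 fold change of IP118/PY115 over vehicle with its 95% interval for each member that could be tested, in PVN (blue), ARC (orange) and NTS (green), from the edgeR fit of each region. The interval of Avpr1b in PVN, 0.49 to 1.54, is the one that lies away from 0, and those of Avp and Oxt in ARC span several log2 units.

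In all, 0 of the 5 members tested in PVN were called for treatment, where 0.656% of 13409 genes were called (88 genes, 71 higher and 17 lower). In ARC 0 of 4 were called, Avpr1b not being testable, where 0% of 13484 genes were called, with 971 at an unadjusted p under 0.05, 59 called by DESeq2 and 5 by limma-voom. In NTS 0 of 2 were called, where 0% of 13696 genes were called, with 795 at an unadjusted p under 0.05, 66 called by DESeq2 and 19 by limma-voom. Without the libraries numbered 1 the calls over all genes numbered 429 in PVN, 153 in ARC and 162 in NTS, with Avpr1b in PVN among them and no other member. Between vehicle regions, 46% of 14379 genes were called in PVN over ARC (3572 higher and 3038 lower, or 2849 and 4006 when scaled by library totals alone), 56.1% in PVN over NTS and 61.7% in ARC over NTS. Among the members testable in each region on its own, Avp, Oxt and Oxtr were called in PVN over ARC and Avpr1a was not, and Oxtr was called in both contrasts with NTS and Avpr1a in neither. With so many genes called, a call alone does not set a member apart. These calls were the same without the libraries numbered 1.

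Whether the effect of treatment differed from region to region was asked in the joint fit. Of the members, 0 were called for PVN minus ARC (0.0487% of genes called), PVN minus NTS (0.0904%) or ARC minus NTS (0%, with 540 genes at an unadjusted p under 0.05 and 10 called by DESeq2). The smallest p belonged to Oxtr, whose effect in PVN exceeded that in ARC by 0.60 ± 0.30 log2 units (interval 0.00 to 1.20; p = 0.0486, adjusted p = 0.799). For Avpr1a the effect in PVN minus that in NTS was 0.32 ± 0.24 (adjusted p = 0.9999). Avpr1b, with at most 2 counts in any ARC or NTS library, allows no statement on such a difference.

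Levels of different genes were set side by side after division by exon length. That step takes reads to be spread evenly along each transcript, which was not tested. The lengths were 577 bases for Avp, 537 for Oxt, 2670 for Avpr1a, 4023 for Avpr1b and 4790 for Oxtr. Avpr1a (ENSMUSG00000020123) lies at chr10:122448499-122453452 on the plus strand and overlaps the annotated gene Gm48877. Avpr1b (ENSMUSG00000026432) lies at chr1:131599239-131612000 on the plus strand. Oxtr (ENSMUSG00000049112) lies at chr6:112473683-112489943 on the minus strand. In vehicle PVN libraries the order of levels in CPM per kb was Oxt at 13210 ± 2926, Avp at 10857 ± 5143, Avpr1a at 3.41 ± 1.003, Oxtr at 0.325 ± 0.094 and Avpr1b at 0.249 ± 0.097 (SD, n = 10). The group ranges of Oxt and Avp overlapped, as did those of Oxtr and Avpr1b. Read within libraries in CPM per kb, Oxt was above Avp in every IP118/PY115 library and in each vehicle library but library 5. In vehicle library 7 the order was the reverse before division by length, at 9403 CPM for Avp and 8884 CPM for Oxt. Oxtr was above Avpr1b per kb in each vehicle library but library 7. In IP118/PY115 PVN libraries Avpr1b stood at 0.509 ± 0.180 and Oxtr at 0.429 ± 0.215 CPM per kb. Their ranges overlapped and their order differed between libraries. Before division by length their means were 2.05 CPM for Avpr1b and 2.06 CPM for Oxtr. In vehicle ARC libraries Avpr1a at 2.97 ± 0.55 and Oxtr at 1.76 ± 0.37 CPM per kb were the steady members, beside Oxt at 86.3 ± 146 and Avp at 64.2 ± 127 (SD, n = 9). In vehicle NTS libraries Avpr1a led at 2.86 ± 0.96, followed by Oxtr at 0.690 ± 0.217 and Oxt at 0.278 ± 0.331 CPM per kb (SD, n = 10). The kidney receptor gene Avpr2 had 5 counts in all 59 libraries.

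Lists of genes that work with the hormones were also compared between vehicle regions, where 46% of all genes were called in PVN over ARC, 56.1% in PVN over NTS and 61.7% in ARC over NTS. All 5 transcription factors of the hormone neuron lineage were higher in vehicle PVN than in ARC and in NTS. In ARC alone 3 of them had enough counts to be tested, and in NTS alone 3. For the others a call of higher in PVN was bound to come, so they are given as a description. Sim1 had 11785 counts in vehicle PVN, 22 in vehicle ARC and 0 in vehicle NTS libraries. The called log2 differences in PVN over ARC were 4.93 ± 0.15 for Pou3f2, 1.81 ± 0.07 for Arnt2 and 0.54 ± 0.11 for Otp. A median over all 5 would rest in part on genes that passed the filter only through PVN, so none is given. Of 9 genes for peptide processing and granules, 6 were called higher and 3 called lower in PVN than in ARC. Their median was 0.45, beside 0.01 over all genes. Pcsk1 and Pcsk2, convertases that cut prohormones, were higher by 1.58 ± 0.12 and 1.21 ± 0.06, and Pcsk1n, which encodes an inhibitor of Pcsk1, and Chga, a granule protein gene, were lower, at -0.80 ± 0.08 and -0.57 ± 0.10. Against NTS 5 were called higher and 2 called lower, beside 28.3% and 27.8% of all genes. Of 8 genes expressed with the hormones in magnocellular neurons, 4 were called higher and 3 called lower in PVN than in ARC. The higher were led by the glutamate transporter gene Slc17a6 (1.93 ± 0.08) and Caprin2 (1.79 ± 0.15). Caprin2 encodes an RNA-binding protein known in rats to bind vasopressin messages. The lower were led by the peptide genes Cartpt (-1.76 ± 0.16) and Gal (-1.70 ± 0.15). Against NTS likewise 4 of the 8 were called higher and 3 called lower. Of 17 genes of Gq signalling, 7 were called higher and 4 lower in PVN than in ARC, beside 24.8% and 21.1% of all genes. In PVN over NTS 3 were called higher and 5 lower, beside 28.3% and 27.8% of all genes. In ARC over NTS 4 were called higher and 7 lower, beside 30.2% and 31.5%. Of 4 tested genes for release and breakdown of the peptides, 2 were called higher in PVN than in ARC and 0 lower. They were the aminopeptidase gene Lnpep (0.64 ± 0.19) and Prep (0.28 ± 0.09). Against NTS, Lnpep was called higher (0.91 ± 0.19) and 2 were called lower. The lower were Cd38, which takes part in oxytocin release (-1.44 ± 0.12), and the channel gene Trpm2 (-0.34 ± 0.11).

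For treatment in PVN, where 0.656% of all genes were called, 1 gene of the 43 tested in these lists was called. It was the lineage factor gene Pou3f2, which fell to 139 ± 13 CPM after IP118/PY115, against 171 ± 24 CPM after vehicle (SD, n = 10 each; 114 to 158 and 128 to 213 CPM). Its log2 fold change was -0.30 ± 0.07 (adjusted p = 0.0475, edgeR quasi-likelihood test). Without the libraries numbered 1, an exclusion that favours calls, it was -0.36 ± 0.07 (adjusted p = 0.0011). The call stands close to the threshold. It was lost in 17 of 20 fits that left out a single library, all but those without IP118/PY115 library 1 or vehicle library 1 or 10, with adjusted p of 0.0040 to 0.130, and without the title numbers 5553 to 5557 (adjusted p = 0.120), with library totals alone (0.0529), without a filter (0.0570), and with the oligodendrocyte score (0.0927) or log10 library total (0.221) as a covariate. The fold change itself stayed between -0.36 and -0.25 in all of these fits. The 9 processing genes were not called, 8 lying above 0 (median 0.12, beside -0.02 over all genes), with Chgb at 0.17 ± 0.06 (adjusted p = 0.222, called with the Sim1 and Otp score as a covariate) and Scg2 at 0.15 ± 0.07 (adjusted p = 0.461). The 8 magnocellular genes were not called (median -0.02), with Slc17a6 at -0.14 ± 0.07 (adjusted p = 0.514) and Caprin2 at -0.28 ± 0.14 (adjusted p = 0.571). The 17 Gq genes were not called (median -0.04), with Rgs2, whose protein turns Gq signalling off, at 0.35 ± 0.16 (adjusted p = 0.496, called by limma-voom) and the arrestin gene Arrb1 at -0.10 ± 0.05 (adjusted p = 0.537). The 4 release and breakdown genes were not called either (median -0.04). None of the listed genes was called in ARC or NTS, where the smallest p values included those of Cd38 in ARC (0.32 ± 0.13, adjusted p = 0.547) and Gna11, a Gq-family gene, in NTS (-0.11 ± 0.04, adjusted p = 0.631).

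Genes whose PVN or ARC level followed each member most closely from library to library were ranked by Pearson r of log2 CPM after removal of the group means, as a description over libraries that share depth and dissection. For Avp across 20 PVN libraries the closest of 13408 genes were Dlk1 (r = 0.85, rho = 0.90), a Notch-related surface protein gene, Ptprn (r = 0.83, rho = 0.88), which encodes a protein of dense-core granules, H13 (0.80), Micall1 (0.78) and F8a (0.78). For Oxt they were Phf2, Ebf3 and Fam189b (each r = 0.88), Celf3 (0.87) and Susd1 (0.87). For Avpr1b, at its low counts, they were Grasp (r = 0.78, rho = 0.63), Ppp1r15a (0.77), Sik2 (0.76), Rab11fip3 (0.75) and Hs1bp3 (0.74). For Avpr1a the closest was Ube2ql1 (r = 0.82, rho = 0.77) in PVN, followed by Syt2 (0.77), Mast2 (0.76), Sdccag8 (0.76) and Cbln4 (0.75). For Oxtr across 19 ARC libraries it was Msrb2 (r = 0.88, rho = 0.89), followed by Zfp593 (0.84), Ier3 (0.78), Tagap1 (0.78) and Dnajc25 (0.78).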

How the data were processed

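Polyadenylated RNA from laser-captured tissue was made into stranded libraries, per the labels' protocols. The deposited table gives the authors' raw counts per Ensembl gene for 59 libraries. STAR 2.5.2a, bcl2fastq 2.20.0.422 and GRCm38 are named in the submitters' processing notes. The counter, its strand and multi-mapping settings and any gene filter are not given in the sources used here. Symbols and exon lengths came from GENCODE M21. Replicates were numbered in accession order. Nothing in the labels says how many animals gave the libraries, so p-values measure the spread between these libraries.

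Treatment was tested per region with edgeR 4.0.16 (quasi-likelihood, robust, TMM, filterByExpr at 10 counts), and vehicle regions and differences in treatment effect in 1 joint fit, with Benjamini-Hochberg adjustment over all genes and a threshold of 0.05. Errors of log2 fold changes are SE. The edgeR fit of treatment in PVN and contrasts of the joint fit were tested on simulated counts. The ranking by Pearson r was tested with a planted gene. The fits with DESeq2, limma-voom or a covariate were not tested on simulated counts. R 4.3.3, limma 3.58.1, DESeq2 1.42.0 and SciPy 1.17.1 were used. The members and gene lists were chosen with earlier results of these data known. For each member, the 5 genes with the highest Pearson r were named, and for each list and comparison up to 4 called genes with the largest change at a mean of at least 5 CPM or, with none called, up to 2 with the smallest p. Amigo2, Fosb and Cdkn1a were chosen after their values were seen.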

Additional observations from a re-analysis of the deposited data

Results flagged for a closer look

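In 28 groups of 9 or 10 libraries, the highest and lowest values were compared with the nearest other library by Dixon's test. Chance passes it in about 1 of 20 groups if the values are normally distributed. CPM were taken without a log, and those of Avp and Oxt in ARC are strongly skewed, so a flag comes more easily there. In all, 6 values stood apart. Avp in ARC stood at 225 CPM in vehicle library 9, with the next vehicle library at 50.5 CPM. Oxt in ARC stood at 191 CPM in IP118/PY115 library 9, with the next at 100.2 CPM. Avpr1a in ARC stood at 16.1 CPM in IP118/PY115 library 10, with the next at 9.85 CPM. Oxtr in PVN stood at 4.72 CPM in IP118/PY115 library 3, with the next at 2.54 CPM. Oxtr in NTS stood at 6.26 CPM in IP118/PY115 library 1, 1 of the 6 libraries placed with the other treatment, with the next at 4.14 CPM. The log2 of Avp over Oxt in PVN stood at 0.74 in vehicle library 5, with the next at 0.08.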

How the results depend on the processing

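No paired analysis was possible because the labels do not say which libraries came from the same animal and the replicate numbers follow accession order. Of the 300 alternative fold changes of 34 results, 280 kept direction and call, 12 reversed, 3 gained a call and 5 lost one. The count of members called for treatment in PVN was 1 with DESeq2, with limma-voom and without the libraries numbered 1, and 0 to 1 leaving out single libraries. Genes called in PVN numbered 209 with DESeq2, 508 with limma-voom, 429 without the libraries numbered 1, 12 without title numbers 5553 to 5557, 6 with log10 library total and 10 with the oligodendrocyte score as a covariate, and 8 to 276 leaving out single libraries. In ARC they numbered 59, 5 and 153 in the first 3 of these settings, 17 with the oligodendrocyte score and 0 to 85 leaving out single libraries. In NTS they numbered 66, 19, 162, 3 and 0 to 92. The larger counts of these ranges came without IP118/PY115 library 1 or vehicle library 1. For PVN minus ARC the count was 15 with DESeq2, 4 without a filter, 52 without the libraries numbered 1, 0 without title numbers 5553 to 5557 and 4 with log10 library total. For PVN minus NTS it was 20 with DESeq2, 62 without the libraries numbered 1 and 4 without title numbers 5553 to 5557, and for ARC minus NTS 10 with DESeq2 and 35 without the libraries numbered 1. The difference in log2 Avp over Oxt in ARC was -0.12 without the libraries numbered 1 and -0.051 to 0.80 leaving out single libraries, that in PVN -0.10 to 0.058. The difference in share of counts was -0.12 without title numbers 5553 to 5557 and -0.035 to 0.11 leaving out single libraries.

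Fold changes that turned direction, none called in either fit, were Avp in PVN with the Sim1 and Otp score (0.064), Oxt in PVN without title numbers 5553 to 5557 (-0.0073) and with limma-voom (-0.041), Avp in ARC (0.41 and 0.28 in these settings), Oxt in ARC (0.23 and 0.10), Avpr1a in NTS with limma-voom (0.0049), Oxtr in NTS without the libraries numbered 1 (-0.020) and, without title numbers 5553 to 5557, PVN minus ARC for Avp (-0.58) and Oxt (-0.20) and ARC over NTS for Avpr1a (-0.0093). Leaving out single libraries moved Avp in PVN over -0.11 to 0.14, Avp in ARC over -1.60 to 0.60, Oxt in ARC over -1.59 to 0.42, Avpr1a in ARC over -0.021 to 0.18, Avpr1a in NTS over -0.16 to 0.019 and Oxtr in NTS over -0.064 to 0.12. The cause was not tested. At 2 to 43 counts of Avpr1b a PVN library, counting error limits its estimate, and the hormone genes in NTS were not testable at this depth.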
